A study of Mus musculus with 8 samples.

Results

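The tumour suppressor gene Trp53, which encodes the transcription factor p53, and 9 genes that p53 is known to activate (Mdm2, Bax, Bbc3, Pmaip1, Ccng1, Phlda3, Eda2r, Sesn2 and Zmat3) were followed in the newborn mouse cerebellum. The 10 genes were taken by symbol, and all 10 were found among the 24062 genes counted. Whole cerebella were dissected from single pups at postnatal day 2, and polyA RNA was sequenced from 4 mutant pups and 4 control littermates of strain C57BL/6(mixed). Mutants were Math1-Cre; Sufu flox/-, and controls were Sufu flox/+ per the series text; the labels do not say whether any control had the Cre. The cross joined a Math1-Cre; Sufu +/- parent to a Sufu flox/flox; Math1 mgfp/mgfp parent, so pups of both groups had 1 floxed Sufu allele and 1 Math1 mgfp allele. Sufu encodes a repressor of Hedgehog signalling, and Math1-Cre recombines in precursors of granule neurons, so the Cre-deleted cells were only a portion of the tissue, while the null allele was in every mutant cell.

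The p53 protein is held at a low level by Mdm2, a ubiquitin ligase that marks it for degradation and that p53 itself induces, which closes a negative feedback loop. Damage to DNA and other stresses free p53 from Mdm2, and p53 then activates genes of cell cycle arrest, of antioxidant defence and of mitochondrial apoptosis. Much of this control acts on the p53 protein rather than on its mRNA. Granule neuron precursors, which divide in response to Sonic hedgehog, are known to undergo p53-dependent apoptosis after DNA damage, and loss of p53 is known to speed medulloblastoma in Hedgehog-driven mouse models.

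p53 binds DNA at pairs of a consensus decamer. RefSeq promoter windows (build GRCm38.p6, 250 bases before to 50 after a start site) were at hand for 8 of the 10 genes, in 10 windows; Zmat3 and Pmaip1 had none. The p53 consensus decamer, which is its own reverse complement so that 1 scan reads both strands, lay in 4 of these 10 windows, those of Bax, Ccng1, Mdm2 and Trp53, against 8.36% of all 32851 windows. A pair of decamers with at most 13 bases between them lay in 0 of the 10 and in 0.0731% of all windows. Pairs outside the windows, or with any mismatch to the consensus, were not looked for. The 0 therefore does not show that a gene lacks a pair. The 4 stretches are shown because they set the promoter letters beside the levels that follow, with the decamer in capitals. They lie at chr7:45467065-45467124 on the minus strand for Bax, chr11:40755437-40755496 on the minus strand for Ccng1, chr10:117710910-117710969 on the minus strand for Mdm2 and chr11:69580259-69580318 on the plus strand for Trp53.
Bax: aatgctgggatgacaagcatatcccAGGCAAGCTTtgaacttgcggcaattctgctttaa
Ccng1: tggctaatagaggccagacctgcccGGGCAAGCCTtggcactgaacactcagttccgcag
Mdm2: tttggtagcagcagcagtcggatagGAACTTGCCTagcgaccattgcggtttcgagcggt
Trp53: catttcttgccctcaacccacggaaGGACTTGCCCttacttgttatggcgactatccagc
The decamer starts 201 bases before the start site in Bax, 185 in Ccng1, 186 in Mdm2 and 75 in Trp53. These are matches of letters only, and these data hold no measure of p53 binding.

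The 8 libraries held 21479565 to 26638284 counts in genes. Levels are given in CPM, counts scaled to a common library size after TMM normalisation. Sufu was lower in every mutant, at 31.7 to 39.8 CPM, than in any control, at 47.7 to 60.7 CPM. Each sample title carries a letter of unstated meaning, P for controls 1 and 2 and mutants 1 and 2, and R for controls 3 and 4 and mutants 3 and 4. Mutants 2 and 4 held Y-linked counts (231 and 213 CPM over Ddx3y, Eif2s3y, Kdm5d and Uty, with Xist under 2 CPM), while the other 6 libraries held at most 0.22 CPM of these genes and 1449 to 2197 CPM of Xist. The summed level of 15 hindbrain Hox genes was 6.91 CPM in mutant 4, 65.0 to 176 CPM in the other mutants and 120 to 216 CPM in controls, so mutant 4 stood apart; Hoxb1 was at 0 counts in mutants 1 and 4. In whole tissue, fewer cells of a type and less RNA per cell cannot be told apart.

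On average, Trp53 (1.39-fold), Eda2r (1.58-fold) and Pmaip1 (1.46-fold) were higher in mutants and Phlda3 (0.66-fold) was lower. The other 6 differed by less than 2 of their standard errors. On simulated counts, the test used here called 36% of 1.5-fold changes, so a gene that did not pass is not shown to be unchanged. The simulation held no shifts shared by many genes, so that rate may not hold for the real libraries. Sufu itself, at 0.66-fold, did not pass (edgeR adjusted p = 0.381). With edgeR's quasi-likelihood test, 0 of the 10 genes passed an adjusted p of 0.05 over all 15789 genes tested, as did 0% of all genes. At an unadjusted p under 0.05, 3 of the 10 genes stood out, Trp53 and Eda2r as higher and Phlda3 as lower, against 12.6% of all genes. DESeq2 called 0 of the 10, against 0.333% of the genes to which it gave an adjusted p (0.261% as higher and 0.0719% as lower). The median log2 fold change of mutant against control was -0.09 over the 10 genes, all of which passed the filter on low counts, and 0.01 over all genes tested. Groups did not overlap for 2 of the 10, Eda2r (higher) and Phlda3 (lower), against 6.57% of all genes in either direction, 3.60% higher and 2.96% lower.

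**Figure D1:**
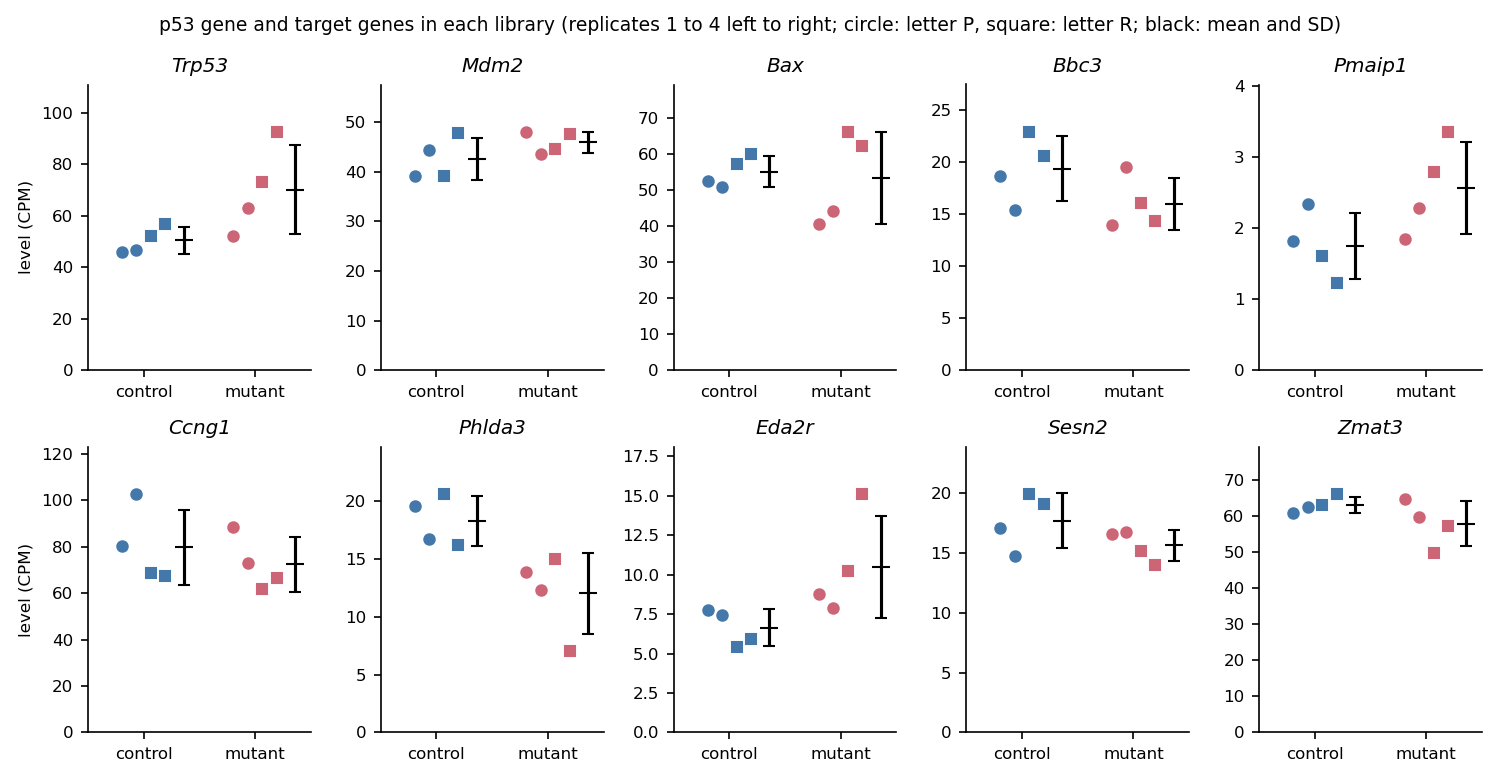
Level of each gene in CPM (vertical axes, each from 0) in the 4 control (blue) and 4 mutant (red) libraries, replicates 1 to 4 from left to right, circles for title letter P and squares for R; black marks are the mean and SD of each group. Mutants of letter R hold the highest Trp53, Pmaip1 and Eda2r levels, and mutant 4 the lowest Phlda3 level (7.03 CPM).

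Trp53 stood at 45.8, 46.7, 52.2 and 57.0 CPM in controls 1 to 4 and at 52.0, 63.0, 73.1 and 92.5 CPM in mutants 1 to 4. Mutant 1 lay within the control range and mutants 2 to 4 above it, so the groups overlapped, but within each title letter both mutants were above both controls. Controls averaged 50.4 ± 5.22 CPM and mutants 70.1 ± 17.2 CPM (SD, n = 4 each). The log2 fold change was 0.48 (SE 0.16), with an adjusted p of 0.381 in edgeR. The log2 fold change was 0.31 without mutant 4, the highest library, and 0.24 with the Hox score of each library as a covariate. Within letter P it was 0.31 (SE 0.12) and within R 0.57 (SE 0.13), and the difference between letters did not pass (edgeR interaction adjusted p = 0.411). Wrap53, which lies head to head with Trp53 and overlaps it on the opposite strand, ranged from 10.1 to 12.3 CPM in controls and from 10.5 to 15.7 CPM in mutants; no source read here says if reads were counted by strand. Mouse Trp53 also has a processed pseudogene, so its counts carry that uncertainty.

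Mdm2, the ligase of the feedback loop, was nearly level. It stood at 39.0, 44.3, 39.2 and 47.7 CPM in controls and at 47.9, 43.6, 44.6 and 47.5 CPM in mutants. The groups overlapped, and the 4 mutants spread less (SD 2.14 CPM) than the 4 controls (SD 4.23 CPM). Mutants differed from controls by a log2 fold change of 0.11 (SE 0.10, edgeR adjusted p = 0.611), which became 0.07 without control 1 and 0.17 without control 4. It was 0.13 within letter P and 0.05 within R, and mutant 4, with 92.5 CPM of Trp53, held 47.5 CPM of Mdm2, below control 4 (47.7 CPM).

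The 3 genes of mitochondrial apoptosis did not share a direction, and 0 of the 3 passed. Bax, the effector that opens the outer mitochondrial membrane, stood at 52.7, 50.8, 57.4 and 60.1 CPM in controls and 40.7, 44.3, 66.2 and 62.3 CPM in mutants. The P mutants were the lowest of the 8 libraries and the R mutants the highest, so that the pooled log2 fold change was -0.05 (SE 0.15, edgeR adjusted p = 0.907). It was -0.29 (SE 0.10) within P and 0.10 (SE 0.09) within R, and this difference between letters did not pass (edgeR interaction adjusted p = 0.115). With the Hox score as a covariate, the pooled log2 fold change of Bax was -0.15. Bbc3, which encodes the BH3-only protein Puma that disables Bcl2-type survival proteins, stood at 18.7, 15.4, 22.8 and 20.5 CPM in controls and 14.0, 19.5, 16.0 and 14.3 CPM in mutants. Mutants 1 and 4 were below every control and mutants 2 and 3 within the control range, for a log2 fold change of -0.28 (SE 0.15, edgeR adjusted p = 0.437). It was -0.03 (SE 0.18) within P and -0.54 (SE 0.13) within R (edgeR interaction adjusted p = 0.276).

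Pmaip1, which encodes Noxa, a BH3-only protein that binds Mcl1, was scarce. It held 26 to 60 counts in the controls and 42 to 90 in the mutants. Its levels were 1.82, 2.34, 1.60 and 1.22 CPM in controls and 1.84, 2.28, 2.78 and 3.35 CPM in mutants. The R mutants were above every control, and the P mutants were within the control range. The log2 fold change was 0.55 (SE 0.25, edgeR adjusted p = 0.396), with -0.02 (SE 0.28) within P and 1.09 (SE 0.26) within R (edgeR interaction adjusted p = 0.122). The Hox score as a covariate gave 0.25.

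Eda2r, a TNF-receptor family member on chromosome X that binds ectodysplasin A2, had the largest log2 fold change of the 10. It stood at 7.78, 7.45, 5.39 and 5.92 CPM in controls and at 8.75, 7.91, 10.2 and 15.1 CPM in mutants. Every mutant was above every control, by a narrow margin for mutant 2 (7.91 against 7.78 CPM) and a wide one for mutant 4. Controls averaged 6.64 ± 1.16 CPM and mutants 10.5 ± 3.21 CPM (SD, n = 4 each). The log2 fold change was 0.66 (SE 0.22), with an adjusted p of 0.381 in edgeR. It was 0.12 (SE 0.17) within P and 1.13 (SE 0.22) within R, a difference of 1.04 (SE 0.28) that did not pass (edgeR interaction adjusted p = 0.0776). Leaving out mutant 4 gave 0.42, and the Hox score as a covariate gave 0.33. Leaving out mutants 2 and 4, the libraries with Y-linked counts, gave 0.51. Its ligand gene Eda averaged 12.6 ± 1.07 CPM among controls and 12.1 ± 1.15 CPM among mutants (SD, n = 4 each).

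Phlda3, which encodes a pleckstrin-homology protein that restrains Akt, had the most negative log2 fold change of the 10. It stood at 19.6, 16.7, 20.6 and 16.2 CPM in controls and at 13.8, 12.3, 14.9 and 7.03 CPM in mutants. Every mutant was below every control, and mutant 4 was far below the other mutants. The log2 fold change was -0.61 (SE 0.21), with an adjusted p of 0.381 in edgeR. Both letters gave the same direction, -0.48 (SE 0.15) within P and -0.77 (SE 0.36) within R. Leaving out mutant 4 gave -0.42, the Hox score as a covariate gave -0.29, and leaving out mutants 2 and 4 gave -0.35.

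The other 3 target genes had slightly lower means in mutants. Ccng1, which encodes cyclin G1, a partner of the phosphatase PP2A that acts on Mdm2, stood at 80.3, 103, 68.9 and 67.5 CPM in controls and 88.6, 72.8, 61.6 and 66.6 CPM in mutants. P libraries were above R libraries in both groups, and the genotypes overlapped (log2 fold change -0.14, SE 0.15, edgeR adjusted p = 0.688). Leaving out control 2, its highest library, gave -0.01, and leaving out mutant 1 gave -0.26. Sesn2, which encodes a stress-induced inhibitor of mTORC1 signalling, stood at 17.0, 14.7, 19.9 and 19.1 CPM in controls and 16.6, 16.7, 15.2 and 14.0 CPM in mutants. Its groups overlapped (log2 fold change -0.18, SE 0.13, edgeR adjusted p = 0.525), with 0.06 (SE 0.14) within P and -0.44 (SE 0.12) within R. For Sesn2, leaving out control 2 gave -0.27, leaving out control 3 gave -0.12, and the Hox score as a covariate gave -0.07. Zmat3, which encodes an RNA-binding zinc finger protein, stood at 60.7, 62.4, 63.1 and 66.0 CPM in controls and 64.6, 59.8, 49.6 and 57.2 CPM in mutants. Mutants 2, 3 and 4 were below every control, for a log2 fold change of -0.12 (SE 0.10, edgeR adjusted p = 0.559), with 0.01 within P and -0.30 within R. For Zmat3, leaving out mutant 3 gave -0.06 and leaving out mutant 1 gave -0.19.

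**Figure D2:**
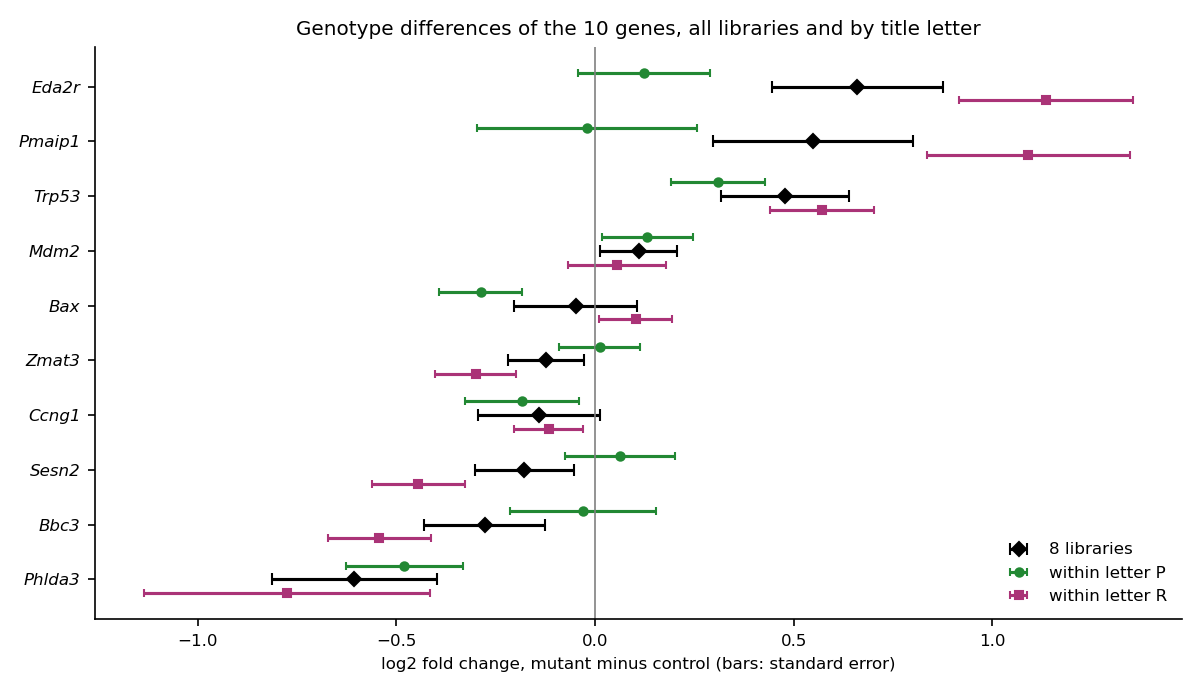
Log2 fold change of mutant minus control (horizontal axis) for each gene, over all 8 libraries (black diamonds), within letter P (green circles) and within letter R (purple squares), with standard errors. Trp53, Mdm2, Phlda3, Ccng1, Eda2r and Bbc3 keep their sign in both letters; Pmaip1, Bax, Zmat3 and Sesn2 do not.

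Across the letters, the genotype differences were larger within R than within P for 7 of the 10 genes in absolute size: Trp53, Bbc3, Pmaip1, Phlda3, Eda2r, Sesn2 and Zmat3. The share of all genes with a larger absolute difference within R was not counted. More of all genes met an unadjusted threshold within R, which depends on spread as well as size. At an unadjusted p under 0.05 in edgeR, 2212 were higher and 2525 lower of 15674 within R. Within P, 871 were higher and 1320 lower of 15759. The difference between letters passed for 0 of the 10 genes (edgeR interaction test, adjusted over 15789 genes), against 3.20% of all genes. At an unadjusted p under 0.05 it was met by 4 of the 10, Bax, Pmaip1, Eda2r and Sesn2, against 22.5% of all genes. Within a library, the genes did not move as a block. Mutant 4 had 4 of the 10 genes above every control (Trp53, Bax, Pmaip1 and Eda2r) and 5 below every control (Bbc3, Ccng1, Phlda3, Sesn2 and Zmat3). Mutant 1 had 2 above and 3 below. The share of all genes outside the control range in each library was not counted, so these counts do not set the 10 genes apart from others.

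Markers of the cells in the tissue differed between the same libraries. All 11 granule precursor markers had higher means in mutants, with a summed level of 1282 to 1515 CPM in controls and 1344, 1691, 1900 and 2554 CPM in mutants 1 to 4, and none was at 0 in any library. All 12 dividing cell markers did too, at 1071 to 1233 CPM in controls and 1287, 1253, 1671 and 2195 CPM in mutants. The order of the mutants in the granule precursor sum is that of their Trp53 levels, and its part in the Trp53 difference was not tested. Hindbrain Hox genes had lower means for all 13 tested, and oligodendrocyte markers for 9 of 10, at 1255 to 1886 CPM in controls and 647 to 1254 CPM in mutants. Peripheral nerve markers were lower for 6 of 7 tested (128 to 173 and 41.6 to 90.5 CPM, with Pmp2 at 0 counts in mutant 4) and microglia markers for 10 of 10 (207 to 315 and 169 to 252 CPM). Choroid plexus markers were higher for 9 of 10 (1363 to 3171 and 3446 to 6039 CPM) and endothelial markers for 7 of 8 (223 to 288 and 239 to 360 CPM). Purkinje markers were higher for 8 of 8 (626 to 888 and 711 to 1067 CPM) and granule neuron markers for 5 of 8 (2369 to 2980 and 2368 to 2576 CPM). Tubb3 was the largest part of the granule neuron sum, at a mean of 1477 CPM in controls and 1134 CPM in mutants. Tubb3 is not particular to granule neurons, so neither is that sum. Ttr was the largest part of the choroid plexus sum, at 2406 and 4457 CPM. Phlda3 was lowest in mutant 4, where oligodendrocyte (647 CPM), nerve (41.6 CPM) and Hox sums (6.91 CPM) were lowest as well, and their part in its difference was not tested.

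**Figure D3:**
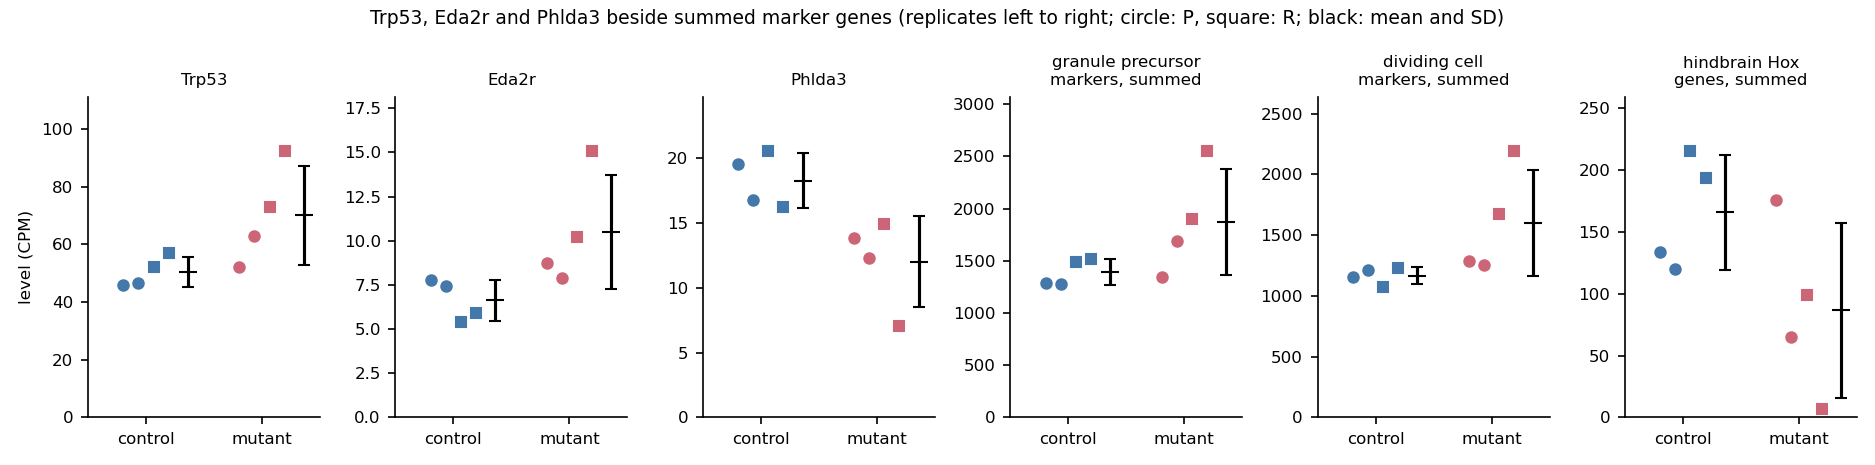
Levels of Trp53, Eda2r and Phlda3 and summed levels of 3 marker lists, in CPM (vertical axes from 0), in control (blue) and mutant (red) libraries, replicates left to right, circles for letter P and squares for R, with the mean and SD in black. Mutant 4 has the highest Trp53 (92.5 CPM), Eda2r (15.1 CPM), granule precursor (2554 CPM) and dividing cell (2195 CPM) values and the lowest Phlda3 and Hox values.

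Genes whose pattern over the 8 libraries was most like that of Trp53 were found by the root mean square difference of log2 CPM after centring each gene. They were Bahcc1 (0.04), Pax6 (0.05) and Ptbp1 (0.05), against a range of 1.01 for Trp53 itself on that scale. Pax6, one of the granule precursor markers above, stood at 138 CPM in controls and 188 CPM in mutants on average. For Eda2r, with a range of 1.47, they were Ndc80 (0.12), Kif15 (0.12) and Kif11 (0.12). Kif11, a motor protein of the mitotic spindle, stood at 60.6 CPM in controls and 92.3 CPM in mutants on average. These are descriptions over 8 libraries, chosen as the nearest of all genes tested.

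Counts per exon bin were used to ask whether the reads of a gene were placed differently along it. Of the 12 Trp53 bins on chromosome 11, all 12 had higher means in mutants, with log2 fold changes of 0.33 to 0.61. The share of the gene's bin counts that each bin took overlapped between groups for 12 of 12. Mdm2 has 12 bins on chromosome 10, of which bins 1 to 9 stood at 0.01 to 0.19 and bins 10, 11 and 12 at -0.06 (SE 0.20), -0.23 (SE 0.21) and -0.30 (SE 0.28). Of the counts in Mdm2 bins, bin 12 took 2.31 ± 0.34% among controls and 1.75 ± 0.70% among mutants (SD, n = 4 each), and its use did not pass (edgeR unadjusted p = 0.160). In Sesn2, bin 5 took 6.49 ± 0.23% among controls and 7.58 ± 0.67% among mutants (SD, n = 4 each) with no overlap, but with an unadjusted p of 0.357 in edgeR. These bins were chosen after their values were seen. Over the bins of 9 genes, 0 passed edgeR's exon-level test, adjusted over 152302 bins, against 0.0118% of all bins. No Pmaip1 bin passed the filter. In that test, 0 of these bins had an unadjusted p under 0.05, against 0.339% of all bins. So small a share of all bins means that the test seldom gave a low p. The 0 calls therefore do not show that bin use was unchanged. By gene, with the Simes method over the bins, 0 of the 9 passed, against 0.00749% of 13351 genes.

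**Figure D4:**
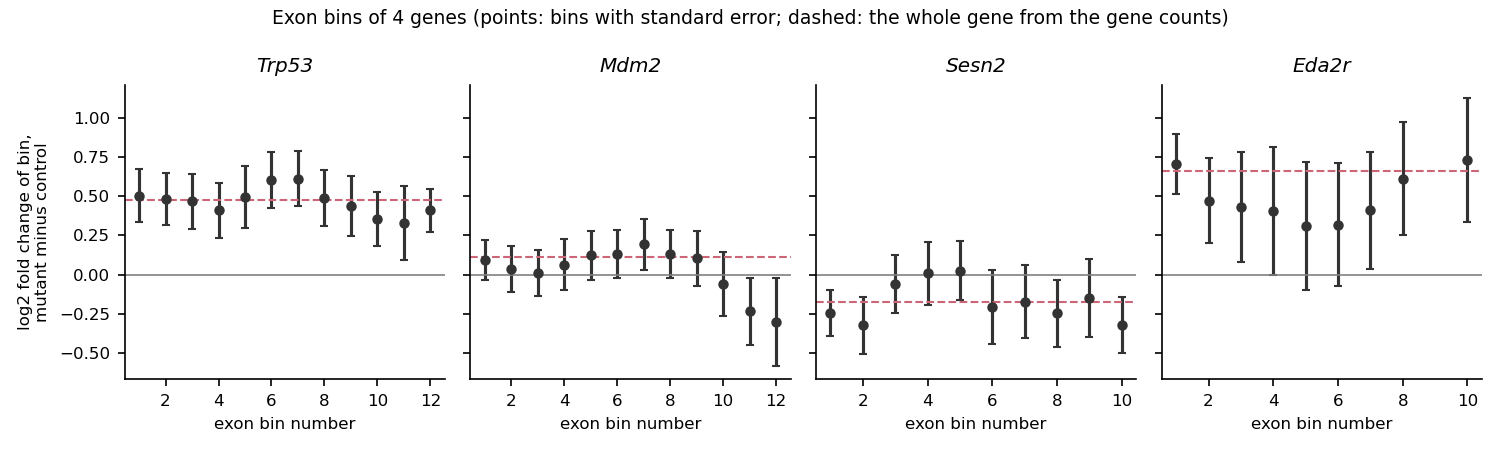
Log2 fold change of mutant minus control (vertical axis) for each exon bin (horizontal axis, bin number) of Trp53, Mdm2, Sesn2 and Eda2r, with standard errors; the dashed line is the whole gene. All Trp53 bins lie at 0.33 to 0.61, while Mdm2 bins 10 to 12 lie below 0.

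Of 38 other p53 target genes listed, 37 were tested and 0 passed in either direction; 6 were higher and 0 lower at an unadjusted p under 0.05 in edgeR, against 6.94% and 5.70% of all genes, and 23 of 37 had higher means, against 52.3% of all genes. Their median log2 fold change was 0.05. The 6 became 0 without mutant 3, where the count over all genes went from 1095 to 1137. They also became 0 without mutant 4 and with the Hox score as a covariate, where the count over all genes went to 475 and to 210. Within letter P, 16 of 37 had higher means, against 49.4% of all genes. Psrc1, which encodes a spindle protein, had 11.6 to 13.4 CPM in controls and 12.8, 13.4, 23.3 and 27.9 CPM in mutants, so that the R mutants stood far above the controls and the P mutants at about their level (log2 fold change 0.62, SE 0.23, edgeR adjusted p = 0.381). Epha2, a receptor tyrosine kinase, was at 3.16 ± 0.22 CPM and 4.49 ± 1.15 CPM (SD, n = 4). Ppm1d, the Wip1 phosphatase that returns p53 to its resting state, was at 27.4 ± 1.43 and 33.0 ± 4.07 CPM (SD, n = 4). Sesn1, the paralog of Sesn2, was at 60.8 ± 3.53 and 71.1 ± 6.34 CPM (SD, n = 4), a log2 fold change of 0.23 where that of Sesn2 was -0.18. Cdkn1a, the p21 inhibitor of cyclin-dependent kinases, chosen after its values were seen, was at 72.5 ± 3.73 and 74.1 ± 7.71 CPM (SD, n = 4).

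Regulators and relatives of p53 had higher means in 20 of 22 tested, against 52.3% of all genes, and 0 passed. At an unadjusted p under 0.05 in edgeR, 4 were higher and 0 lower, against 6.94% and 5.70% of all genes. The list median was 0.19. With the Hox score as a covariate it was 0.10, with 18 of 22 higher, against 50.7% of all genes, and 0 at the unadjusted threshold. The 4 became 8 without mutant 3 and 2 without mutant 4, beside the same counts over all genes as above. Within letter P, 16 of 22 had higher means, against 49.4% of all genes. There, 5 were higher and 2 lower at the unadjusted threshold, against 871 and 1320 of 15759 genes. Atm, the kinase that signals DNA breaks to p53, stood at 45.1 to 60.6 CPM in controls and 67.2, 63.8, 59.6 and 87.4 CPM in mutants (log2 fold change 0.43, SE 0.14, edgeR adjusted p = 0.381). Chek2, the kinase downstream of Atm, stood at 7.00 to 7.24 CPM in controls and 7.61, 8.42, 11.8 and 12.97 CPM in mutants. Every mutant was above every control for Chek2 (log2 fold change 0.52, SE 0.18, edgeR adjusted p = 0.381). Chek2 was the 1 of 22 without overlap, against 6.57% of all genes (3.60% higher). Atr, the kinase of stalled replication forks, was at 40.5 ± 5.68 and 48.6 ± 4.14 CPM (SD, n = 4), and Crebbp, an acetyltransferase that modifies p53, at 92.5 ± 10.2 and 111 ± 13.5 CPM (SD, n = 4). Cdkn2a, whose Arf product inhibits Mdm2, was at 0 to 0.19 CPM across the libraries and was not tested.

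The apoptosis machinery downstream was split evenly, with 9 of 18 tested genes higher, against 52.3% of all genes. Its median log2 fold change was -0.0040, and 0 passed the threshold. At an unadjusted p under 0.05 in edgeR, 2 were higher and 0 lower, against 6.94% and 5.70% of all genes. Bcl2l11, the BH3-only protein Bim, stood at 20.1 to 22.3 CPM in controls and 22.4 to 28.4 CPM in mutants, without overlap (log2 fold change 0.24, SE 0.10). Casp8, the initiator caspase of death receptors, did not overlap either, at 6.62 to 8.63 and 8.92 to 11.2 CPM. These were the 2 of 18 without overlap, against 6.57% of all genes (3.60% higher). Bmf, another BH3-only protein, was at 12.7 ± 1.79 and 15.6 ± 1.82 CPM (SD, n = 4), and Cycs, cytochrome c, at 196 ± 35.1 and 160 ± 21.4 CPM (SD, n = 4). A list of paralogs and relatives of the 10 genes also holds Eda, the ligand gene of Eda2r. Of 11 tested, 6 had higher means, against 52.3% of all genes, and 0 passed. At an unadjusted p under 0.05 in edgeR, 1 was higher (Sesn1) and 1 lower (Zmat5), against 6.94% and 5.70% of all genes. Zmat5 ranged from 14.6 to 18.1 CPM in controls and from 10.5 to 16.1 CPM in mutants. Edar averaged 0.77 ± 0.16 and 1.12 ± 0.27 CPM, and Ccng2 at 51.5 ± 4.32 and 58.1 ± 10.3 CPM (SD, n = 4).

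**Figure D5:**
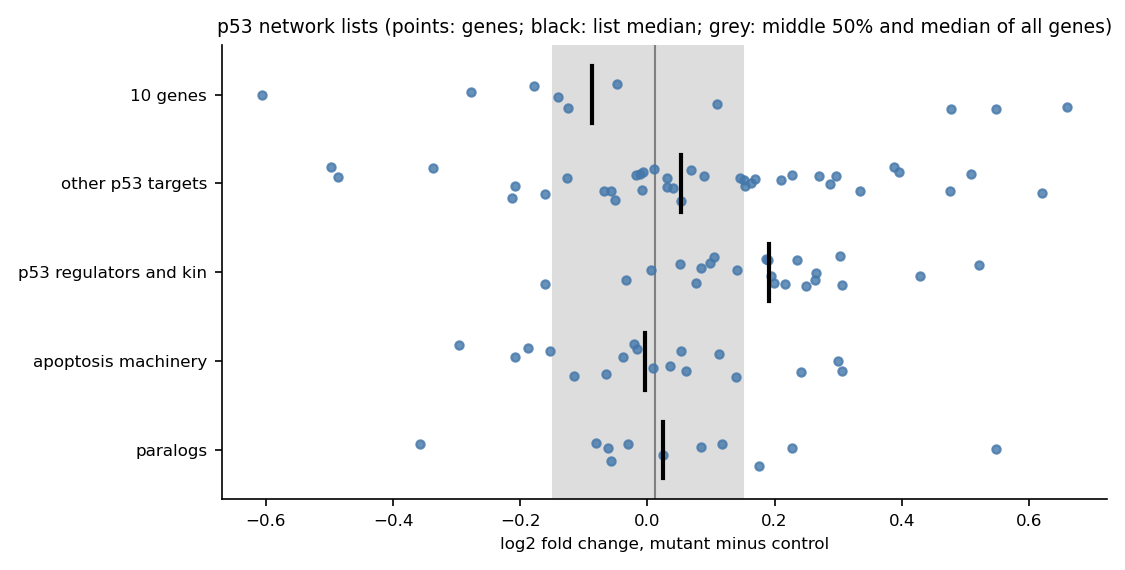
Log2 fold change of mutant minus control (horizontal axis) for each tested gene of 5 lists (points, spread vertically only to be seen), with list medians in black and the median and middle 50% of all genes tested in grey. The median of regulators and relatives is 0.19 and that of the 10 genes -0.09.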

How the data were processed

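Expression was measured in 8 cerebella with polyA TruSeq libraries. The members and lists were chosen with earlier results of these data known. The authors deposited raw counts per gene and per exon bin. The submitters' processing notes list TopHat, HTSeq, DESeq2 and mm9 with no version, and nothing read here states the annotation or the strand setting. The 5 summary lines of each gene table, 24.8 to 34.3% of its entries, were left out. They made up 30.1 to 34.3% in the letter P libraries and 24.8 to 26.3% in the letter R libraries. The chi-square per degree of freedom between libraries of 1 group was 7.76 to 85.7, so none is a repeat of another.

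Tests used edgeR 4.0.16 (R 4.3.3) with filterByExpr, TMM factors of 0.986 to 1.01 and the robust quasi-likelihood F test, two-sided, on genotype alone. P-values were adjusted over 15789 genes by Benjamini-Hochberg, with a threshold of 0.05. The SE is the absolute log2 fold change divided by the square root of F. Exon bins were tested with diffSpliceDGE on 152302 bins. DESeq2 1.42.0, other scalings, no filter, left-out libraries, the title letter and covariates were alternatives. Each pup is 1 replicate. The Hox score is the mean log2 CPM (prior count 2) of 13 Hox genes. The tests were tried on simulated counts first. For genes, 36% of 1.5-fold and 78% of 2-fold changes were called, and 7.65% of calls were false. For exon bins by gene, 69% of 2-fold changes were called, and 13.0% of calls were false. The simulated counts held no shifts shared by many genes, so these rates may not hold for the real libraries. Named genes are the 10 members, the 4 with the smallest p in each other list and the 3 nearest patterns to Trp53 and Eda2r; the text says where others were chosen later. Promoter windows are of another build than the counts, and gene positions in mm9 were not used here.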

Additional observations from a re-analysis of the deposited data

Results flagged for a closer look

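Bax was the 1 gene of the 10 in which every mutant of letter P lay below its controls and every mutant of letter R above its own. The share of all genes with this order was not counted. In edgeR's interaction test, 22.5% of all genes had an unadjusted p under 0.05. The genotype difference in R minus that in P was 0.41 (SE 0.13) on the log2 scale, with an unadjusted p of 0.0118 and an adjusted p of 0.115 in edgeR's interaction test. In the 20 sets of 4 values (10 genes in 2 groups), no library stood apart by Dixon's 95% criterion.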

How the results depend on the processing

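Under the 18 alternatives, 0 of the 10 genes were called. The other p53 lists (16 alternatives), the exon bins (10) and the difference between letters (2) had 0 calls too. Over all genes, DESeq2 called 51, and leaving out 1 library gave 0 to 1 calls, the 1 without mutant 1; there were 5 within letter P and 1 within R. Single genes held their direction in 174 of 180 values. Bax was -0.17 (without mutant 3) to 0.052 (without mutant 1) when 1 library was left out, 0.0087 without mutant 2 and 0.10 within letter R. Within letter P, Pmaip1 was at -0.020, Sesn2 at 0.063 and Zmat3 at 0.011. The median of the 10 genes was -0.0044 within letter P, and -0.12 to -0.05 when 1 library was left out. The cause was not tested. The lowest adjusted p of any setting for Trp53, Eda2r, Pmaip1 and Bbc3 was 0.0911, within letter R by edgeR, and 0.187 for Phlda3, by DESeq2. Title letter as a block gave 0.46 for Trp53 (edgeR adjusted p = 0.216), 0.64 for Eda2r (0.232) and -0.61 for Phlda3 (0.232). Xist as a covariate, added after seeing the data, gave 0.30, 0.50 and -0.34, and -0.07 for Ccng1. Depth limits Pmaip1 most, at 26 to 90 counts a library. No paired analysis was possible because the labels give no replicate numbers shared by the groups.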

Other observations

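Further genes of the lists were chosen after their values were seen. Sulf2, listed as a p53 target, encodes an extracellular enzyme that trims heparan sulfate. It stood at 169 to 205 CPM in controls and at 168, 162, 115 and 71.9 CPM in mutants 1 to 4. Mutant 1 lay barely below control 2 (168.5 against 168.8 CPM). Of the 37 other targets tested, Sulf2 was the 1 whose groups did not overlap, against 6.57% of all genes (2.96% lower). Mdm4, the partner of Mdm2 that masks the p53 activation domain, stood at 55.6 to 67.7 CPM in controls and at 81.7, 78.6, 59.8 and 78.4 CPM in mutants, so that mutants 1, 2 and 4 were above every control and mutant 3 was not. Trp73, a relative of p53, was at 4.89 ± 0.57 CPM and 6.03 ± 0.87 CPM (SD, n = 4), and Trp63 was under 1 CPM in every library.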
